A study of Mus musculus with 6 samples.

Results

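The 6 genes described here encode enzymes of the NADH shuttles, Mdh1, Mdh2, Got1, Got2, Gpd1l and Gpd2. They were taken by name from the 45808 rows of a deposited table of raw counts, and each matched 1 row. All 6 passed the filter on low counts, which left 14209 genes for testing. The libraries came from T cells of the spleen of C57BL/6 mice aged 2 months, activated in culture by antibodies to CD3 and CD28 with IL-2, a T cell growth factor. There were 3 wild-type libraries and 3 libraries of genotype Drp1-/- (KO below). Drp1, the product of Dnm1l, is the dynamin-related GTPase that divides mitochondria. All libraries shared the strain background, age, culture and stimulation. The sources used here do not give how and in which cells the gene was deleted, or whether each replicate was a separate animal or culture. Values of the libraries are listed in the order of replicates 1, 2 and 3, wild type first. The p-values therefore measure only the spread between these libraries, which may be technical.

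NADH made in the cytosol cannot cross the inner mitochondrial membrane, so cells pass its electrons inward through shuttles. In the malate-aspartate shuttle, cytosolic malate dehydrogenase (Mdh1) reduces oxaloacetate to malate with NADH, malate enters the mitochondrion in exchange for 2-oxoglutarate, and mitochondrial malate dehydrogenase (Mdh2) makes NADH again. The aspartate aminotransferases Got2 (mitochondrial) and Got1 (cytosolic) return the carbon as aspartate, which is also a building block of nucleotides and proteins in dividing T cells. In the glycerol phosphate shuttle, a cytosolic dehydrogenase reduces dihydroxyacetone phosphate with NADH, and Gpd2, on the outer face of the inner membrane, oxidizes the product and hands the electrons to ubiquinone. Gpd1 is the classical cytosolic enzyme of that shuttle, and Gpd1l is its paralog.

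The libraries held 24738017 to 34730475 counts. Dnm1l was lower in all 3 KO libraries (92.6 to 101 CPM, counts per 1000000 counts, with library sizes scaled by TMM factors) than in the wild-type libraries (117 to 123 CPM). Reads of exons outside a deleted stretch can still add to such a count, but their part in these values was not tested. On the first principal component wild-type replicate 1 scored -44.9 and the remaining wild-type libraries -20.9 and -20.2, on the side away from KO. Xist, the RNA of the inactive X chromosome, was read 0 to 3 times per wild-type library and 12950 to 16862 times per KO library. The 4 Y-linked genes checked were read in all 6 libraries and were lower in KO. Each KO library thus held Xist and Y-linked reads together, and whether it mixed cells of animals of both sexes was not tested. The sex makeup of the cultures differed along with genotype, and the contributions of sex and genotype cannot be told apart. None of the 6 shuttle genes lies on a sex chromosome, but this limit holds for them as well. All 11 T cell markers checked were read in every library, with means from 171 CPM (Cd247, KO) to 661 CPM (Lck, wild type). In KO, 9 of them fell, as did 26.1% of all tested genes (calls as defined below). Of 7 B cell markers, all were read, and their summed level was 192 to 209 CPM in the wild-type libraries and 183 to 195 CPM in those of KO. For NK and gamma-delta T cell markers (7 genes) the sums were 137 to 151 and 218 to 243 CPM in the same order. All 7 rose, as did 26.7% of all tested genes. Klrk1, with means of 99.8 and 122 CPM, was the largest part of these sums. The gamma-delta receptor genes Trdc, Tcrg-C1, Tcrg-C2 and Tcrg-C4 rose by 1.30, 1.52, 1.24 and 1.15 on the log2 scale. Erythroid and platelet markers (8 genes) summed to 7.58 to 9.70 and 19.8 to 22.8 CPM. Of these 8, the globin genes Hba-a1 and Hbb-bs averaged 0.0509 CPM or less in each group. The platelet genes Pf4 (log2 2.06 ± 0.19 SE), Ppbp (2.23 ± 0.22 SE) and Itga2b (0.90 ± 0.10 SE) rose in KO. Their mean levels were 1.36, 0.428 and 7.01 CPM in wild type and 5.73, 2.06 and 13.2 CPM in KO. Myeloid markers (8 genes) summed to 66.2 to 67.7 and 68.4 to 75.2 CPM, with S100a8 and S100a9 at 0 counts in every library. Cst3, with means of 62.8 and 67.9 CPM, made up most of these sums, which therefore say little about the rest. Of the 3 that could be tested, Lyz2 rose (log2 1.36 ± 0.34 SE), Itgam fell (-0.44 ± 0.14 SE) and Cst3 was not called. Summed over the libraries of each genotype, wild type first, Cd14 had 3 and 18 counts, Adgre1 7 and 11, and Csf1r 8 and 3. The part of other cell types in the results below was not tested.

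At an adjusted p under 0.05 (edgeR quasi-likelihood test, Benjamini-Hochberg over all tested genes), 5 of the 6 rose, 0 fell and 1, Mdh1, did not pass. The Got1 call was lost in 8 of 15 alternative settings. In the same comparison 52.9% of all tested genes were called, 26.7% as higher and 26.1% as lower. The 6 log2 fold changes ran from 0.07 to 0.54 with a median of 0.23, beside a signed median of 0.01 over all tested genes. The median size of a called change over all genes was 0.41 (log2). Changes smaller than that of Gpd1l were seen in 79.2% of tested genes, and smaller than that of Mdh2 in 56.5%. For Got2, Gpd2, Got1 and Mdh1 these shares were 46.0%, 41.3%, 26.2% and 14.9%. Each of the 6 genes had all 3 KO libraries above all 3 wild-type libraries, as did 32.5% of all tested genes, while in 30.8% all KO libraries lay below all wild-type libraries. In bulk RNA, fewer cells of a type and less RNA per cell cannot be told apart, so these are levels per total count of the whole culture.

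**Figure D1:**
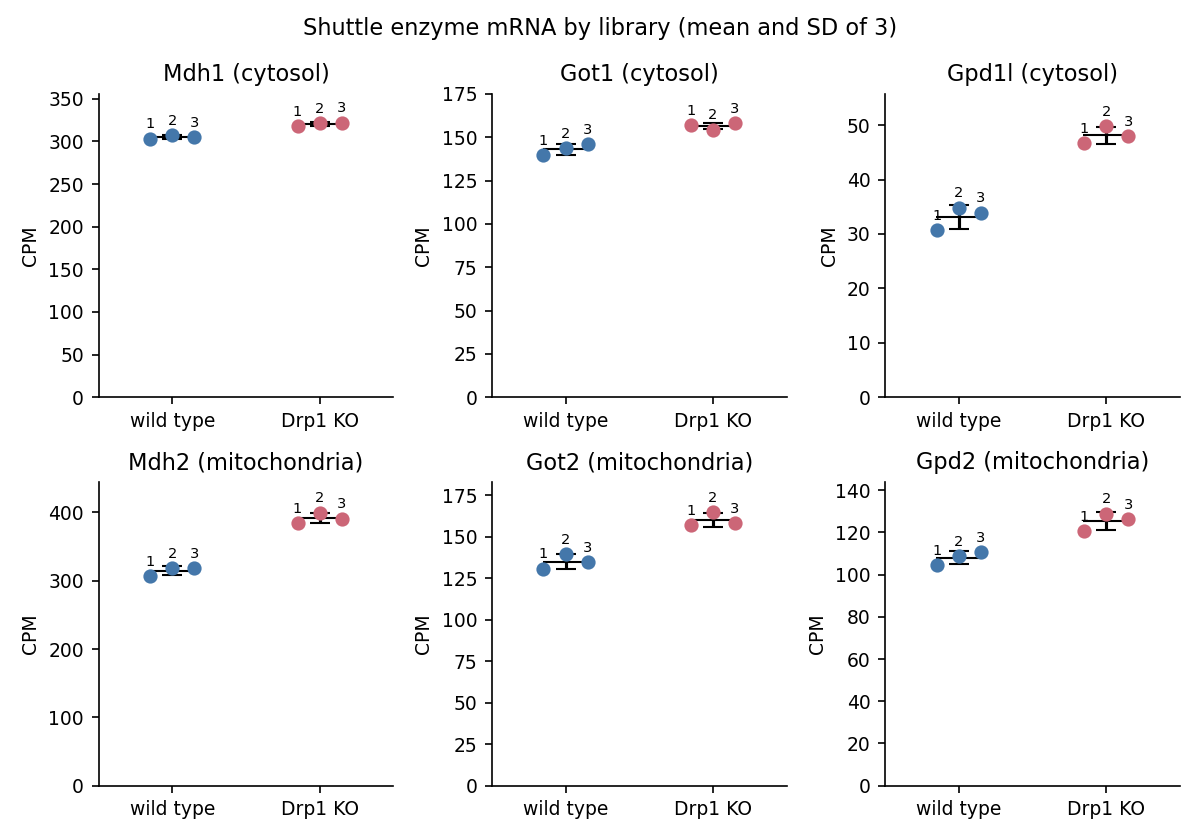
Levels of the 6 shuttle enzyme genes as CPM (y axis, from 0) against genotype (x axis), with cytosolic enzymes in the upper row and mitochondrial ones in the lower; points are libraries, numbered by replicate, with the mean and SD (n = 3) as bars. In every panel the 3 KO libraries lie above the 3 wild-type libraries, with Mdh1 averaging 305 and 321 CPM and Gpd1l 33.1 and 48.2 CPM.

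Of the malate dehydrogenases, the mitochondrial gene rose and the cytosolic gene did not pass. Mdh2 (chromosome 5, 135778480 to 135790398, mm10, protein coding) was at 307, 319 and 318 CPM in wild type and at 384, 400 and 391 CPM in KO. All KO values lie clear of all wild-type values, by far more than the spread within either group. Its mean went from 315 ± 6.82 to 392 ± 7.69 CPM (SD, n = 3 each), a log2 fold change of 0.32 ± 0.04 (SE) with an edgeR adjusted p of 0.000219, or 24.4% more. Mdh1 (chromosome 11, 21556787 to 21572367, protein coding) was at 303, 308 and 305 CPM in wild type and 318, 322 and 322 CPM in KO. The groups do not overlap, but the gap is small, at 305 ± 2.15 against 321 ± 2.21 CPM (SD, n = 3 each). Its log2 fold change was 0.07 ± 0.04 (SE), with a 95% interval of -0.02 to 0.16 and an edgeR adjusted p of 0.158. Scaled by library totals alone, Mdh1 passed as higher (log2 0.15, edgeR adjusted p = 0.0120).

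The ratio of the paired enzymes within 1 library does not depend on scaling. Mdh2 counts per Mdh1 count were 1.01, 1.04 and 1.04 in wild type and 1.21, 1.24 and 1.21 in KO. All KO ratios were above all wild-type ratios, and the mean log2 ratio went from 0.04 ± 0.02 to 0.29 ± 0.02 (SD, n = 3 each), a difference of 0.24 or 18.5%. The exact two-sided permutation test gave p = 0.10, the smallest p that 3 libraries against 3 allow. That was so for each of the 6 ratios computed here (adjusted p = 0.10), so none of them can pass a threshold of 0.05 by this test.

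The promoters of this pair are shown because 1 of the paired genes rose and the other did not pass, and that of Gpd1l because its change was the largest of the 6 genes. Each run below is the 250 bases before the RefSeq start (GRCm38.p6), 5′ to 3′ on the gene's strand. Capitals mark TCTCGCGAGA in Mdh2, CCAAT or its reverse complement in Mdh1, and CACGTG in Gpd1l. GENCODE places earlier starts for Mdh1 and Mdh2, so the Mdh1 window lies wholly and the Mdh2 window partly inside the GENCODE gene.
Mdh2 promoter, chr5:135778399-135778648, plus strand: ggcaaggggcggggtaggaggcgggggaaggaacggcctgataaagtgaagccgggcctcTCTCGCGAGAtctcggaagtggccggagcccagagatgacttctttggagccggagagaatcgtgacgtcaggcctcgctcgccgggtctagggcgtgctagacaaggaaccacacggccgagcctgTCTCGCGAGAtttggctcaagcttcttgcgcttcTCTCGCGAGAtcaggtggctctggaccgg
Mdh1 promoter, chr11:21571935-21572184, minus strand: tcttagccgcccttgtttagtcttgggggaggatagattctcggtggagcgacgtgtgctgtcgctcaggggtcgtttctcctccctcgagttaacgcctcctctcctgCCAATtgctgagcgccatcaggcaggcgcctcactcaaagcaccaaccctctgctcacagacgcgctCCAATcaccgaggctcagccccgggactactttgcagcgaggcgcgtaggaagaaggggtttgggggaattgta
Gpd1l promoter, chr9:114933988-114934237, minus strand: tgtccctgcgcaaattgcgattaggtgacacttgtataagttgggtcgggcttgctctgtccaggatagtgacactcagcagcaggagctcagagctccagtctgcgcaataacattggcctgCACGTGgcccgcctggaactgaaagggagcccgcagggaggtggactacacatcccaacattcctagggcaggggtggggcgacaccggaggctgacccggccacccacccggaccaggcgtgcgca

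On both strands, 5 motifs were searched in these windows, for all 6 genes and for all 32851 RefSeq promoter windows of the same length. TCTCGCGAGA is the 10-base palindrome that the Mdh2 window repeats most, and it was chosen from that window. It occurred 3 times there, beginning 190, 63 and 29 bases before the start. Over all windows, 0.390% held it at least once and 2 windows held it 3 times or more. None of the windows of the other 5 genes held this motif. CACGTG, the E-box that Myc with its partner Max can bind, occurred once in Gpd1l, beginning 127 bases before the start, and in 6.02% of all windows. The shorter ACGTG, the core of the element bound by hypoxia-inducible factors, was in the windows of Mdh1 and Gpd1l and 1 of the 2 Gpd2 windows, and in 16.6% of all windows; it lies inside the E-box, where both strands match. CCAAT was found 5 times in Got1, 2 times in Mdh1 and once in Gpd1l, and at least once in 33.8% of all windows. The consensus site of the factor NRF1 was in none of the 7 windows and in 0.998% of all windows. A match describes the letters of the window and does not show that a factor binds there.

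Both aspartate aminotransferases were called higher in KO, Got1 only narrowly. Got2 (chromosome 8, 95864134 to 95888547, protein coding) was at 131, 139 and 135 CPM in wild type and at 157, 165 and 158 CPM in KO. The KO libraries all lie above the wild-type ones. Means were 135 ± 4.40 and 160 ± 4.13 CPM (SD, n = 3 each), a log2 fold change of 0.24 ± 0.05 (SE) with an edgeR adjusted p of 0.00175. Got1 (chromosome 19, 43499752 to 43524605, protein coding) was at 140, 144 and 146 CPM in wild type and at 157, 154 and 158 CPM in KO. These groups stand close but do not overlap, at 143 ± 3.25 and 156 ± 1.92 CPM (SD, n = 3 each). The log2 fold change of Got1 was 0.13 ± 0.04 (SE), with an edgeR adjusted p of 0.0312. This call was lost without wild-type replicate 2 (edgeR adjusted p = 0.0793) or 3 (0.0545), without KO replicate 1 (0.0782), 2 (0.0686) or 3 (0.112), with no filter on low counts (0.0800) and by DESeq2 (adjusted p = 0.0626).

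Got2 and Got1 were nearly equal in reads. Got2 counts per Got1 count were 0.937, 0.971 and 0.922 in wild type and 1.00, 1.07 and 1.00 in KO. The ranges do not overlap, but the highest wild-type ratio (0.971) and the lowest KO ratio (1.00) lie close together. The mean log2 ratio went from -0.08 ± 0.04 to 0.03 ± 0.05 (SD, n = 3 each), a difference of 0.12 or 8.33% (exact permutation p = 0.10). Reads of the pseudogene Got2-ps1 equalled 0.754% of the Got2 counts, and adding them left the difference at 0.12.

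Both glycerol phosphate enzymes rose in KO. Gpd1l (chromosome 9, 114899341 to 114933987, protein coding) was at 30.7, 34.8 and 33.9 CPM in wild type and at 46.7, 49.8 and 48.0 CPM in KO. The groups are far apart, and wild-type replicate 1 was the lowest library. Its mean rose from 33.1 ± 2.16 to 48.2 ± 1.58 CPM (SD, n = 3 each), or 45.1%, with a log2 fold change of 0.54 ± 0.06 (SE) and an edgeR adjusted p of 0.000114. Gpd2 (chromosome 2, 57237635 to 57370719, protein coding) was at 105, 109 and 111 CPM in wild type and at 121, 129 and 126 CPM in KO. Again no KO library fell within the wild-type range. Gpd2 rose from 108 ± 3.08 to 125 ± 4.27 CPM (SD, n = 3 each), a log2 fold change of 0.21 ± 0.05 (SE) with an edgeR adjusted p of 0.00440.

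Gpd1, the classical cytosolic partner of Gpd2, was barely read. It had 3, 7 and 8 counts in wild type and 14, 4 and 6 counts in KO, at most 0.392 CPM, and did not pass the filter on low counts. The groups overlap, and no difference was detectable at this depth. Gpd2 counts per Gpd1l count were 3.41, 3.12 and 3.26 in wild type and 2.59, 2.59 and 2.63 in the KO libraries. Every KO ratio lay below every wild-type ratio. The mean log2 ratio fell by 0.33, from 1.71 ± 0.06 to 1.38 ± 0.01 (SD, n = 3 each; exact permutation p = 0.10), which is the opposite sign to the mitochondrial to cytosolic ratios of Mdh and Got.

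**Figure D2:**
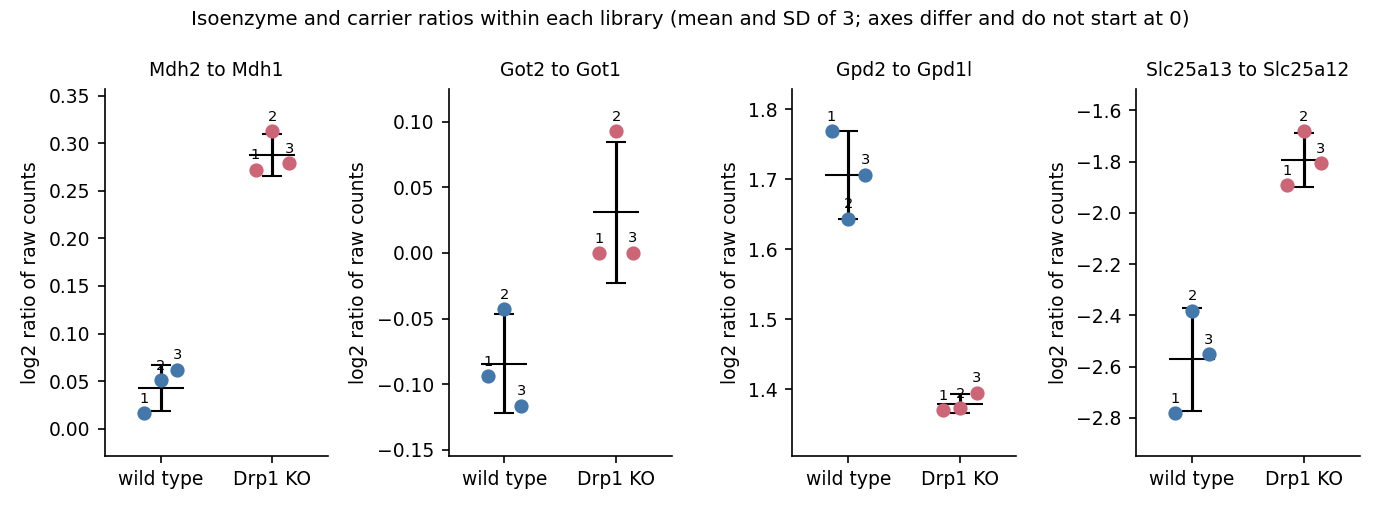
Log2 ratio of raw counts of paired genes within each library (y axis, a separate range in each panel) by genotype (x axis); points are libraries, numbered by replicate, with the mean and SD (n = 3) as bars. KO libraries lie above wild type for Mdh2 to Mdh1, Got2 to Got1 and Slc25a13 to Slc25a12 and below for Gpd2 to Gpd1l, where the mean goes from 1.71 to 1.38.

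Each shuttle also needs carriers and partners, and these moved in part. Slc25a11, the carrier that exchanges malate for 2-oxoglutarate, was at 56.2, 60.2 and 62.8 CPM in wild type and at 70.9, 74.9 and 71.7 CPM in KO, without overlap (log2 0.28 ± 0.06 SE, edgeR adjusted p = 0.00224). The aspartate-glutamate carriers differed from each other. Slc25a13 (citrin) was at 14.0, 18.5 and 17.0 CPM in wild type and 25.6, 28.5 and 26.7 CPM in KO, a rise of 0.70 ± 0.10 (SE) on the log2 scale (edgeR adjusted p = 0.000242). Slc25a12 (aralar) was at 96.1, 96.4 and 99.6 CPM in wild type and 95.0, 91.3 and 93.4 CPM in KO, and did not pass (log2 -0.06 ± 0.05 SE, 95% interval -0.17 to 0.04, edgeR adjusted p = 0.283). The ratio of Slc25a13 to Slc25a12 counts was 0.145, 0.192 and 0.171 in wild type and 0.270, 0.312 and 0.286 in KO. Citrin counts thus stood closer to aralar counts in each KO library than in any wild-type library, a difference of 0.78 in mean log2 ratio (SD 0.20 in wild type and 0.11 in KO, n = 3 each; exact permutation p = 0.10). This ratio was chosen after its values were seen. Slc25a13 lay above and Slc25a12 below wild type in every KO library, so the non-overlap of the ratio and its p were already fixed. Got1l1, a paralog of Got1, was low in every library, with ranges of 1.08 to 1.41 CPM for wild type and 1.20 to 1.42 CPM for KO, and did not pass (edgeR adjusted p = 0.666). Mdh1b, a paralog of Mdh1, had 2, 1 and 0 counts in the wild-type libraries and 0 in each KO library.

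Per kilobase of exon, the malate dehydrogenases were the most abundant of the 6 enzymes and Gpd1l the least. In wild type, Mdh1 stood at 119 ± 0.839 CPM per kb, Mdh2 at 88.3 ± 1.91, Got1 at 56.3 ± 1.28, Got2 at 28.0 ± 0.912, Gpd2 at 16.5 ± 0.470 and Gpd1l at 6.53 ± 0.426 CPM per kb (SD, n = 3). No 2 neighbours in this order overlapped between libraries, and the order was the same in KO, where Mdh1 stood at 125 and Gpd1l at 9.49 CPM per kb. Among the carriers, Slc25a11 (28.2 ± 1.59 CPM per kb) did not differ from Got2 beyond its spread in wild type. Slc25a12 stood at 13.3 ± 0.268 and Slc25a13 at 4.34 ± 0.607 CPM per kb. Lengths are the union of all annotated exons, so a gene with many rarely used exons reads low on this scale.

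**Figure D3:**
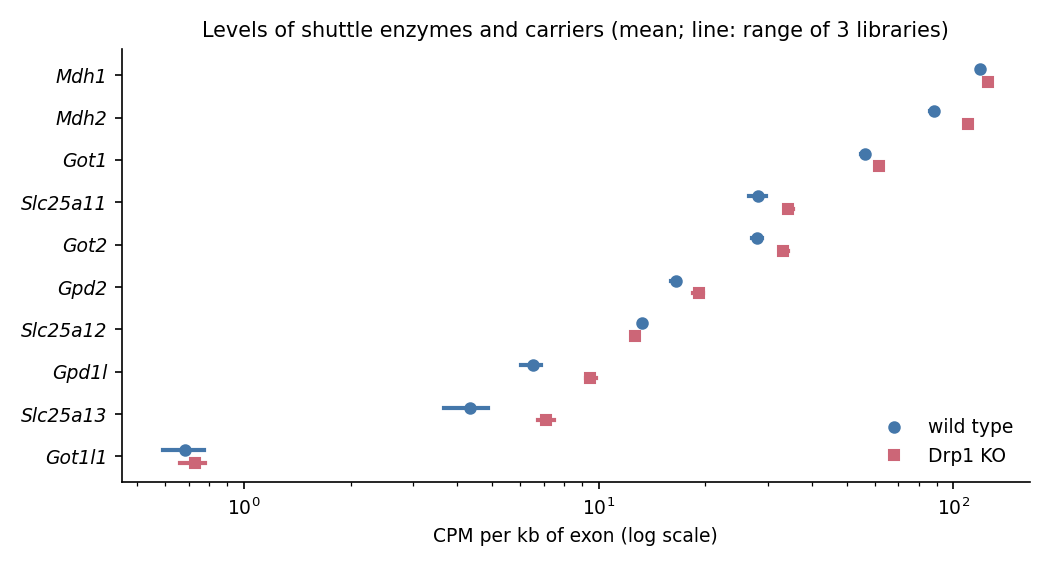
CPM per kilobase of exon (x axis, log scale) for the shuttle enzymes and the tested carriers and minor paralogs (y axis); circles are wild-type means, squares KO means, and lines span the 3 libraries. Mdh1 is highest at 119 and 125 CPM per kb, and Gpd1l goes from 6.53 to 9.49 CPM per kb.

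A further list held genes around glycolytic NADH: Gapdh, the lactate dehydrogenases, the lactate carriers Slc16a1 and Slc16a3 and the mitochondrial pyruvate carrier genes Mpc1 and Mpc2. All 7 were tested: 3 fell, 2 rose and 2 missed the threshold (median log2 fold change -0.09). Of all tested genes, 26.1% fell and 26.7% rose. Gapdh, the glycolytic enzyme that makes cytosolic NADH, fell from 2211 ± 154 to 1409 ± 58.8 CPM (SD, n = 3 each; log2 -0.65 ± 0.06 SE, edgeR adjusted p = 3.49e-05). Ldha, lactate dehydrogenase A, fell by a smaller amount (log2 -0.18 ± 0.04 SE), a call lost when scaled by library totals alone (edgeR adjusted p = 0.0523). Among the lactate carriers, Slc16a3 fell (log2 -0.57 ± 0.05 SE) and Slc16a1 rose (log2 0.31 ± 0.06 SE). The summed counts of the 6 shuttle enzymes, which the malate dehydrogenases dominate, equalled 0.427, 0.484 and 0.505 of the Gapdh counts in wild type and 0.801, 0.884 and 0.877 in KO. Set against Ldha counts, the same sum was 0.443, 0.451 and 0.470 in wild type and 0.598, 0.579 and 0.606 in KO. Neither ratio overlapped between genotypes, with differences of 0.86 and 0.39 in mean log2 ratio (exact permutation p = 0.10 for each). These 2 ratios were chosen after the values were seen. All 6 enzymes had every KO library above wild type, and Gapdh and Ldha had every KO library below. The non-overlap and the p of both ratios were thus fixed by the single genes. Gapdh has many processed pseudogenes that can share its reads.

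Other enzymes that make or use malate and oxaloacetate were mixed. The counts of each list here stand beside 26.7% higher and 26.1% lower among all tested genes. From a list of 11, 9 could be tested; 3 were higher, 1 was lower and 5 were not called (median log2 fold change 0.08). Fh1, fumarate hydratase, which feeds malate to Mdh2, rose (log2 0.38 ± 0.05 SE, edgeR adjusted p = 0.000255), as did Acly, ATP citrate lyase, which makes cytosolic oxaloacetate (0.40 ± 0.06 SE), and Slc25a10, the dicarboxylate carrier (0.53 ± 0.09 SE). Me2, the mitochondrial NAD-linked malic enzyme, fell (log2 -0.23 ± 0.05 SE, edgeR adjusted p = 0.00529). Among 10 genes that use aspartate, all tested, 4 rose and 2 fell (median 0.07). Cad, which starts pyrimidine synthesis from aspartate, rose from 160 ± 17.5 to 278 ± 17.1 CPM (SD, n = 3 each; log2 0.79 ± 0.08 SE). Adsl, adenylosuccinate lyase of purine synthesis (log2 0.81 ± 0.08 SE), and Asns, asparagine synthetase (log2 0.37 ± 0.05 SE), rose too. Adssl1, an adenylosuccinate synthase, fell (log2 -0.86 ± 0.10 SE). Of 11 genes around glutamate and 2-oxoglutarate, the other substrates of the aminotransferases, 10 were tested, with 4 higher and 1 lower (median 0.03). Gpt2, the mitochondrial alanine aminotransferase (log2 0.49 ± 0.08 SE), and Psat1, the phosphoserine aminotransferase (log2 0.26 ± 0.04 SE), rose, and Gls2, a glutaminase, fell (log2 -0.77 ± 0.10 SE). Bcat1, the cytosolic branched-chain aminotransferase, rose by 0.12 ± 0.05 (SE) on the log2 scale, a call lost with any library but wild-type replicate 1 left out (edgeR adjusted p = 0.0958 to 0.164), with no filter (0.120), with RLE size factors (0.0648) and by DESeq2 (adjusted p = 0.102).

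Around glycerol phosphate, 5 of 10 tested genes of 11 listed fell and 3 rose (median -0.08). Among all tested genes the shares were 26.1% and 26.7%. The falls included the glycolytic genes on either side of dihydroxyacetone phosphate, the substrate of the cytosolic dehydrogenase. Aldoc (log2 -0.95 ± 0.06 SE) and Aldoa (-0.72 ± 0.06 SE), the aldolases, fell, and so did Tpi1, triose phosphate isomerase (-0.46 ± 0.04 SE, edgeR adjusted p = 3.49e-05). Glycerol kinase (Gyk in the table), which makes glycerol phosphate from glycerol, rose from 28.6 ± 0.865 to 35.7 ± 3.54 CPM (SD, n = 3 each; log2 0.32 ± 0.08 SE, edgeR adjusted p = 0.00557). It lies on the X chromosome. Like the other changes here, its rise cannot be told apart from the difference in sex makeup.

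Of 9 other genes whose products pass electrons to ubiquinone, as Gpd2 does, 5 rose and 2 fell (median 0.31). Shares among all tested genes, for this list and the next, were 26.7% higher and 26.1% lower. Dhodh, which oxidizes dihydroorotate in pyrimidine synthesis and like Gpd2 sits at the inner membrane, rose from 18.5 ± 1.88 to 35.2 ± 2.91 CPM (SD, n = 3 each; log2 0.92 ± 0.09 SE, edgeR adjusted p = 4.70e-05). Prodh, proline dehydrogenase, rose at a low level (2.12 ± 0.408 to 4.65 ± 0.202 CPM, SD, n = 3 each), and Sdhb of complex II rose (log2 0.31 ± 0.05 SE). Sqrdl, sulfide quinone reductase, fell (log2 -0.83 ± 0.13 SE). In the list on NAD synthesis and transport, 3 of 11 genes rose and 4 fell (median -0.06). Nampt, the rate-limiting enzyme of NAD salvage, fell from 211 ± 25.4 to 164 ± 5.19 CPM (SD, n = 3 each; log2 -0.36 ± 0.08 SE, edgeR adjusted p = 0.00258). Nmnat2, which makes NAD outside the nucleus, fell (log2 -1.03 ± 0.13 SE). Nmnat1, its nuclear counterpart (log2 0.35 ± 0.08 SE), and Nadk, NAD kinase (log2 0.39 ± 0.06 SE), rose.

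**Figure D4:**
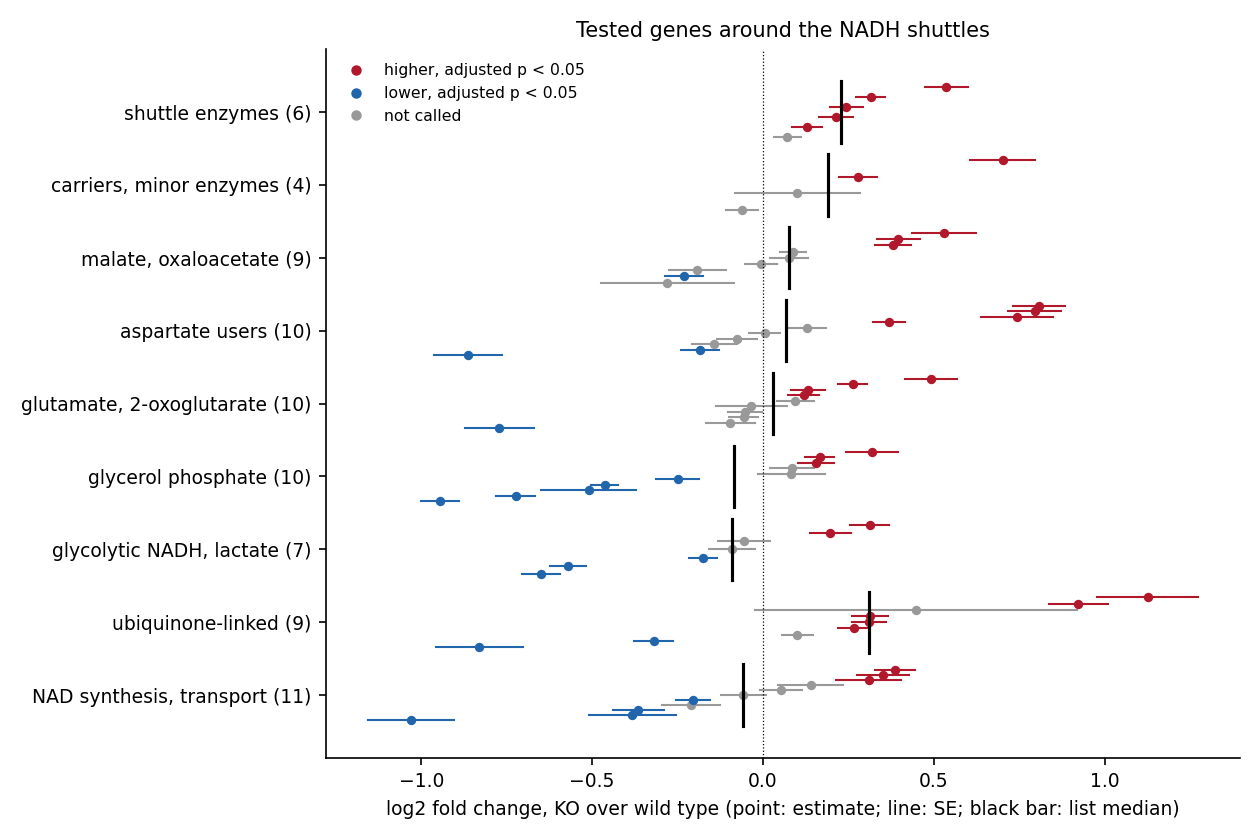
Log2 fold change of KO over wild type (x axis) for each tested gene of the shuttle enzymes and 8 surrounding lists (y axis, number tested in brackets); points are estimates, lines the SE, black bars list medians, red higher and blue lower at an edgeR adjusted p under 0.05, grey not called. The shuttle enzymes have a median of 0.23 with 5 of 6 called higher, against 26.7% of all tested genes. Medians of the 8 surrounding lists run from -0.09 (glycolytic NADH and lactate) to 0.31 (ubiquinone-linked).

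Neighbours of each enzyme were searched among 7396 genes averaging 20 CPM or more. The 6 enzymes themselves were left out, as were pseudogenes and genes with Gm-number, Rik or date names. The enzymes thus could not appear as neighbours of each other. Closeness was the root mean square distance over the 6 libraries between log2 CPM values centred on each gene's mean. The 2 nearest genes to each enzyme are given. For Mdh2 they were Lrrc59 (distance 0.00837) and Mrgbp (0.0128), and for Mdh1 Ms4a6b (0.00615) and Xpot, a tRNA exporter (0.00701). Got2 was followed by Tmem14c (0.00987) and Aaas, a nuclear pore gene (0.0118), and Got1 by Fam208b (0.0103) and Tubgcp3 (0.0104). Gpd1l was nearest to Rpia, ribose phosphate isomerase (0.0146), and Slc43a3 (0.0162), and Gpd2 to Vrk1 (0.00832) and Stk16 (0.0126). With 6 libraries in 2 genotypes these distances mostly match the size of the genotype difference.

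Without wild-type replicate 1, the library that lay apart, the count of shuttle enzymes called higher was again 5, and their log2 fold changes were 0.30 for Mdh2, 0.06 for Mdh1, 0.22 for Got2, 0.11 for Got1, 0.49 for Gpd1l and 0.19 for Gpd2. Exons of Mdh1, Got2 and Gpd2 share 52, 434 and 487 bases with genes on the other strand (Wdpcp, Gm45760 and A930012O16Rik), and whether the counting used strand is not given in the sources used here. Reads of these partners may therefore not be separated.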

How the data were processed

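Polyadenylated RNA was sequenced in 6 stranded libraries, per the labels' protocols. Tools in the submitters' processing notes, given without roles or order, are STAR 2.5.2, HTSeq 0.6.1, DESeq2 1.12, FastQC and Cufflinks, with mm10 as the genome. The authors deposited raw counts per gene symbol, 1 column per library; 27 rows whose symbols had become dates (0.241% of counts) stayed in the totals. For the counting, annotation and strand setting were not given in the sources used here.

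Counts were tested with edgeR 4.0.16 in R 4.3.3 (TMM factors, filterByExpr, quasi-likelihood test, KO over wild type, 4 residual degrees of freedom, Benjamini-Hochberg adjustment). The procedure was also run on simulated counts in which far fewer genes changed than were called here, so its behaviour under such wide change was not tested. 3 counts equal 0.0840 to 0.128 CPM. Ratios used raw counts within a library and an exact two-sided permutation test. Levels per kb used exon unions of GENCODE M21 (mm10), matched by symbol; promoters came from RefSeq (GRCm38.p6), with 6 of 6 genes matched. Alternatives were other scalings, DESeq2 1.42.0, limma-voom (limma 3.58.1), other filters, a replicate block, an adjusted p under 0.01 and each library left out.

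Named were all 6 enzymes and the carriers, up to 4 called genes with the smallest adjusted p of each list plus 1 of the opposite direction where those went one way, and the 2 nearest genes by level. The enzymes and lists were chosen with earlier results of these data known.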

Additional observations from a re-analysis of the deposited data

How the results depend on the processing

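The count of genes called was 5985 to 7534 with a library left out, against 7513, and the count of shuttle enzymes called higher was 4 to 5, against 5. Scaled by library totals alone it was 6, and it was 4 with DESeq2, with no filter and at an adjusted p under 0.01; Got1 and Mdh1 account for these differences. Library totals alone raised the share of higher calls among all called genes from 50.6% to 62.0% and the median of all genes from 0.01 to 0.08 (log2). Mdh2, Got2, Gpd1l, Gpd2, Slc25a11 and Slc25a13 kept their direction and their call in all 15 alternatives. Of the enzymes and carriers named, 2 that were not called changed sign: Slc25a12 scaled by library totals alone (0.0125) and Got1l1 without wild-type replicate 3 (-0.0064; 0.21 without wild-type replicate 2).

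Leaving out a library moved the log2 ratio differences to 0.23 to 0.25 for Mdh2 to Mdh1, 0.08 to 0.14 for Got2 to Got1, -0.36 to -0.30 for Gpd2 to Gpd1l, 0.67 to 0.87 for Slc25a13 to Slc25a12, and 0.79 to 0.91 and 0.37 to 0.41 for the summed enzymes to Gapdh and Ldha. Correlations of same-numbered deviations were 0.17, 0.13 and 0.01, and 5 of 6 libraries correlated best with their own number. Whether the replicate numbers pair the libraries cannot be told from these values. With the replicate block 7900 genes and 5 shuttle enzymes were called, and the ratio differences between same-numbered libraries were 0.22 to 0.26, 0.09 to 0.14 and -0.40 to -0.27 for the 3 isoenzyme pairs. The exact permutation test used for the ratios cannot give a p under 0.10 with 3 libraries a group.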
